A study of Mus musculus with 2 samples.

Results

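Tetraspanin transcripts were examined in mouse 5cc7 T cell blasts. The members were the probe sets whose single annotated symbol was Tspan with a number, or Cd9, Cd37, Cd53, Cd81, Cd82, Cd151, Upk1a, Upk1b, Prph2 or Rom1. They comprised 63 of 45037 probe sets and 29 of 18193 named genes. Cd63 and Tspan7 had no probe set listed under their symbols and are not analysed here. The cells were 5cc7 T cells, whose receptor recognises a moth cytochrome c peptide. They were collected 5 days after stimulation with MCC peptide in culture, and their polyadenylated RNA was measured on 2 Affymetrix mouse 430 2.0 arrays, called set 1 and set 2. Both arrays belong to 1 group with no resting or untreated cells beside it, so no difference between conditions could be tested. The labels do not say that the arrays hold separate cultures, and the spread between them may be technical.

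Tetraspanins are small proteins that cross the membrane several times and carry a large extracellular loop held by disulphide bonds. They bind one another, integrins, proteases and immune receptors, and so arrange these partners into membrane microdomains. In lymphocytes they are known for costimulation and restraint of receptor signalling, for adhesion and migration, and as markers of secreted vesicles.

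Values are the deposited linear intensities, given on set 1 and set 2 in that order, and as mean ± SD (n = 2). Probe sets differ in their probes, so the intensity of a gene is read against the background bound and not as an abundance relative to another gene. Genes of liver, eye, pancreas and kidney set the bound of each array, as the 95th percentile of their probe sets. This gave 52.1 for set 1 and 55.1 for set 2. A probe set above it on both arrays was called above background, and a gene was so called when at least 1 of its probe sets was.

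Of the 29 tetraspanin genes, 19 were above background (65.5%), against 47.8% of all named genes. By probe set the count was 28 of 63, against 38.5% of all probe sets. With a bound from a second list of other organs, 10 of the 29 genes (34.5%) were above background, against 35.4% of all named genes, so the higher share of the family holds at the first bound and not at this one. Genes with more probe sets have more chances of a call. At the shares of all genes with the same number of probe sets, 15.0 of the 29 genes would be called. The called genes fell into 2 ranges of signal. Over 5 times the bound on both arrays were 9 genes, Cd53, Tspan13, Cd82, Tspan31, Cd81, Tspan3, Cd9, Tspan32 and Cd37, which is 31.0% of the family against 17.8% of all genes. Tspan14 followed, and with it 10 genes were over 2 times the bound, 34.5% of the family against 35.0% of all genes. The other 9 called genes, Tspan9, Cd151, Tspan6, Tspan18, Tspan2, Tspan8, Upk1a, Tspan5 and Tspan4, lay within 2 times the bound on at least 1 array. The second list, of 34 genes, had 8 above the bound, 3 over 2 times it and 2 over 5 times it. A call within 2 times the bound is therefore weakly distinguished from background.

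**Figure D1:**
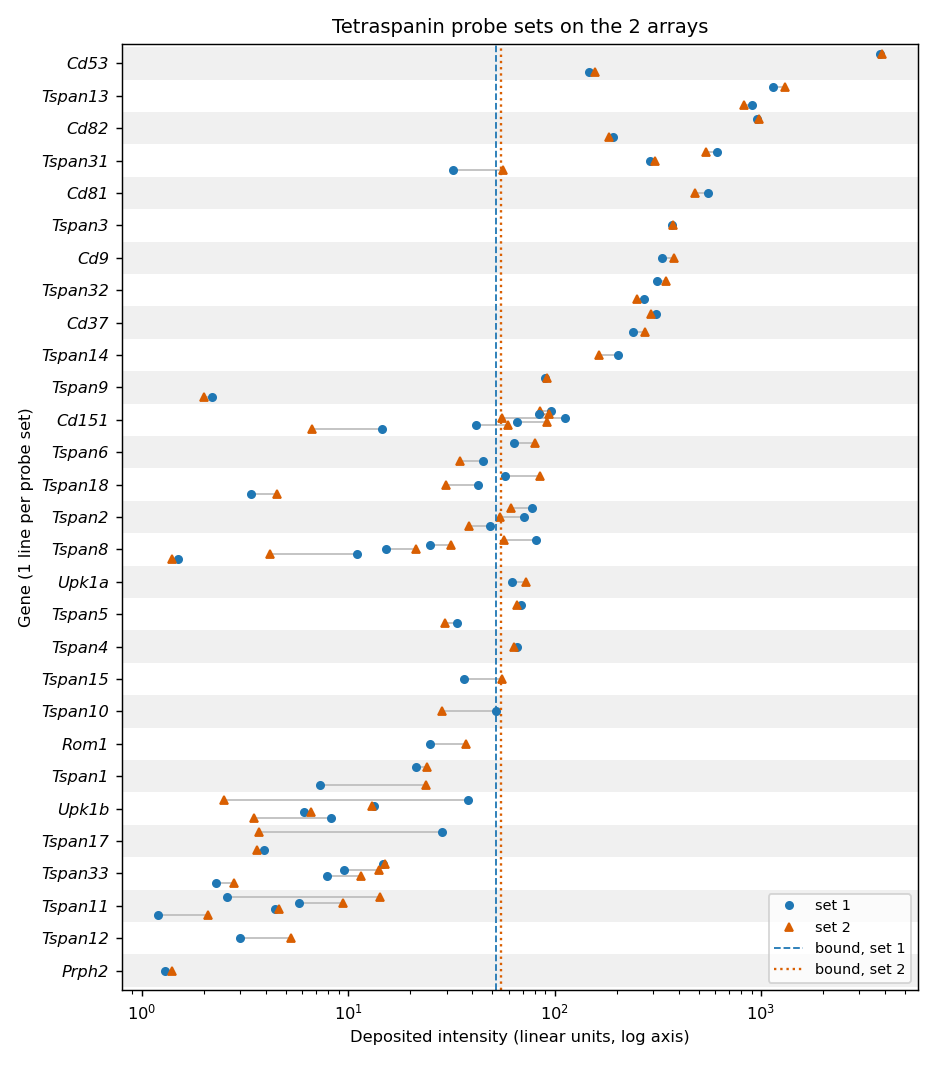
Deposited intensity (log axis) of each of the 63 tetraspanin probe sets, 1 line per probe set, with set 1 as circles and set 2 as triangles. The dashed and dotted lines are the bounds of 52.1 and 55.1, and the 9 genes from Cd53 to Cd37 have a probe set over 5 times both.

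The tetraspanins of white blood cells were all detected. Each of the 6 genes of this role, Cd53, Cd82, Cd81, Cd9, Tspan32 and Cd37, was over 5 times the bound, against 17.8% of all genes. Of their 10 probe sets 10 were above it, against 38.5% of all probe sets. The role lists were chosen with earlier results of these data known, so these counts only describe the listed genes. Cd53, a tetraspanin found across leukocytes that in mice helps to keep the phosphatase CD45 at the T cell surface, measured 3768.6 and 3867.9 (3818 ± 70.2). Its second probe set read 146.8 and 157.6 (152 ± 7.64), and both probe sets were above background. Cd82, which costimulates T cells and is also known as a metastasis suppressor, measured 959.8 and 976.3 (968 ± 11.7) with 1 probe set and 192.6 and 183.1 (188 ± 6.72) with the other. Neither probe set of Cd82 moved by more than 0.10 on the centred log2 scale between the arrays.

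Cd81, the partner of the B cell coreceptor that also costimulates T cells, had 1 probe set, at 554.8 and 477.5 (516 ± 54.7). Cd9, a costimulatory tetraspanin of T cells that is needed on the egg for fusion with sperm, measured 329.8 and 378.6 (354 ± 34.5). Both genes rest on a single probe set, which was more than 6 times the bound on each array. Tspan32, whose loss in mice makes T cells proliferate more, measured 314.8 and 346.3 (331 ± 22.3) and, by its second probe set, 270.1 and 251.7 (261 ± 13.0). Cd37, another tetraspanin that restrains T cell proliferation in mice, measured 309.6 and 293.4 (302 ± 11.5) and 241.1 and 273.1 (257 ± 22.6). Every probe set of Tspan32 and of Cd37 was above background.

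Among the members of no assigned role, 3 genes were well above the bound. Tspan13, also called NET-6, measured 1139.1 and 1300.5 (1220 ± 114) with 1 probe set and 905.1 and 830 (868 ± 53.1) with the other. Its level was at least 15.1 times the bound on every reading. Tspan31, first described as a gene amplified in human sarcomas, measured 609.5 and 542.3 (576 ± 47.5) and 290.5 and 307.9 (299 ± 12.3). The other probe set of Tspan31 read 32.2 and 56.4 (44.3 ± 17.1) and passed the bound on set 2 alone. Tspan3, a broadly expressed tetraspanin with a single probe set, measured 369.1 and 373.9 (372 ± 3.39). For Tspan13 and Tspan3 every probe set was called, and for Tspan31 2 of 3.

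The TspanC8 group comprises Tspan5, Tspan10, Tspan14, Tspan15, Tspan17 and Tspan33. Its proteins escort the protease ADAM10 out of the endoplasmic reticulum and direct which surface proteins it cuts. Of the 6 genes, 2 were above background (33.3%), against 47.8% of all genes. Tspan14 measured 202.8 and 163.3 (183 ± 27.9), or 3.90 and 2.96 times the bound, with 1 probe set that carries the suffix _s_at, a mark for probes shared by several transcripts. Tspan5 measured 68.4 and 65.6 (67.0 ± 1.98) with 1 probe set, while its other read 33.8 and 29.5, below the bound. Only Tspan14 of this group was therefore over 2 times the bound.

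Tspan15 and Tspan10 were the genes just outside the call. Tspan15, which directs ADAM10 to N-cadherin, read 36.6 and 55.6 (46.1 ± 13.4), and passed the bound on set 2 alone. Tspan10, known from pigmented cells of the eye, read 52.2 and 28.4 (40.3 ± 16.8) and passed it on set 1 alone. The 2 arrays put each gene on different sides of the bound. Tspan17 stayed between 3.6 and 28.5 over 2 probe sets. Tspan33, known from erythroid precursors and activated B cells, stayed between 2.3 and 15.1 over 4 probe sets, below the bound throughout.

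ADAM10 itself was well measured. Adam10 read 719 and 936.1 (828 ± 154), with 3 of its 4 probe sets above background. Adam17, a related sheddase, read 215.7 and 170.6 (193 ± 31.9) with 3 of 3. In the list of shed receptors and Notch genes, 10 of 17 were above background, against 47.8% of all genes, among them Cd27 at 1008 ± 1.77, Cd44 at 995 ± 61.1, Notch1 at 423 ± 10.7 and Fasl at 329 ± 32.5. App, Cdh1 and Cdh2 were not, at 26.1 ± 8.27, 11.9 ± 6.72 and 2.15 ± 0.919. The protease was detected together with Tspan14, on a single probe set, and with transcripts of several of its substrates. Tspan5 was called too, but within 2 times the bound, and lost the call with the bound from the second list. A link between these transcripts was not tested.

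The 4 measured genes grouped here for integrins, vesicles and migrating cells were Cd151, Tspan6, Tspan4 and Tspan8. All 4 were above background, against 47.8% of all genes, but within 2 times the bound on at least 1 array. Cd9 and Cd81, which also associate with integrins and vesicles, are given with the white blood cell role. Cd151, which holds laminin-binding integrins, had 4 of 6 probe sets above background, the brightest at 96.1 and 84.7 (90.4 ± 8.06). The others called read 83.8 and 94.1, 112.8 and 55.6, and 65.6 and 91.9. Of the other 2, 1 passed the bound on set 2 alone at 41.8 and 59.3, and 1 read 14.6 and 6.7. The call of Cd151 is thus repeated over several probe sets, but none reached 2 times the bound on both arrays. All the called probe sets except that at 112.8 and 55.6 carry the suffix _x_at, a mark for probes that may match other transcripts. The exception was only 1.01 times the bound on set 2.

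Tspan6, which is reported on secreted vesicles, measured 63.4 and 80.6 (72 ± 12.2) with 1 probe set and 44.9 and 34.9 with the other. Tspan4, a marker of the migrasomes that moving cells leave behind, measured 65.4 and 63.8 (64.6 ± 1.13) with its single probe set. Tspan8, an epithelial tetraspanin, passed the bound with 1 of 5 probe sets, at 81 and 56.7 (68.9 ± 17.2). Its other 4 probe sets read between 1.4 and 31.5. By the best probe set of each called gene, the Tspan8 call was the narrowest of the family, at 1.03 times the bound on set 2.

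Members typical of other tissues gave 2 calls among 7 genes (28.6%), against 47.8% of all genes. Prph2 and Rom1, which shape the discs of photoreceptors, read 1.3 and 1.4 (1.35 ± 0.0707) and 24.8 and 37.2 (31.0 ± 8.77). Tspan12, a part of the Norrin receptor complex of retinal vessels, read 3 and 5.3 (4.15 ± 1.63). Tspan1, an epithelial tetraspanin, read between 7.3 and 24.2 over 2 probe sets. These 4 genes were below the bound on every reading, as were all 4 probe sets of the bladder gene Upk1b, which read between 2.5 and 38.

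Upk1a, the other uroplakin of the bladder surface, passed the bound at 61.9 and 72.9 (67.4 ± 7.78), or 1.19 and 1.32 times it. Tspan2, a tetraspanin of oligodendrocytes, had 1 of 3 probe sets above background, at 77.3 and 61.5 (69.4 ± 11.2). A second Tspan2 probe set passed on set 1 alone at 71.2 and 54.1, and the other read 48.8 and 38.3. Both calls lie in the range in which the genes of other organs also gave calls.

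The remaining members of no assigned role were low. Tspan9, known from platelets, measured 89.5 and 91.5 (90.5 ± 1.41) with 1 probe set, and its other read 2.2 and 2. Tspan18, which in human endothelium binds the calcium channel Orai1, had 1 of 3 probe sets above background, at 57.5 and 85 (71.2 ± 19.4). Tspan11, the closest relative of Cd151, was not above background, with 4 probe sets between 1.2 and 14.3. Over all members, 2 probe sets passed the bound on set 1 alone and 3 on set 2 alone, against 2.61% and 2.51% of all probe sets. The other 30 probe sets passed it on neither array, with readings from 1.2 to 48.8.

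Among the members, probe sets of 1 gene often gave different calls, and how often they do so over all genes was not counted. Of the 18 member genes with more than 1 probe set, 13 were above background, and in 5 of these, Cd37, Cd53, Cd82, Tspan13 and Tspan32, every probe set was. In 8 more, at least 1 probe set was not, Tspan8 and Tspan9 among them. The other 6 called genes were among 11 members with a single probe set, against 32.5% called of all such genes. Of the members with 2 probe sets 8 of 10 were called, against 55.7%, and with 3 probe sets 3 of 3, against 68.0%. With 4 probe sets the count was 0 of 3, against 73.9%, and with 5 or more 2 of 2, against 80.6%. When the median over the probe sets gave the level of a gene, 14 member genes (48.3%) were above background, against 40.9% of all genes by the same rule, and Tspan18, Tspan2, Tspan5, Tspan8 and Tspan9 lost the call.

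The 2 arrays gave like readings for the called members. The log2 reading of set 1 was subtracted from that of set 2, and the differences were centred on their median over all called probe sets, 0.03. Across the 28 called member probe sets the median difference was -0.01 with an SD of 0.31, against an SD of 0.24 over all called probe sets. On set 2, 13 were higher and 15 lower. Beyond 1.5-fold was 1 of the 28, against 2.89% of all called probe sets. This was the Cd151 probe set at 112.8 and 55.6, with a difference of -1.05. Among the member probe sets not called, the SD was 1.14, against 1.08 for all such probe sets, so readings under the bound varied widely from array to array.

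**Figure D2:**
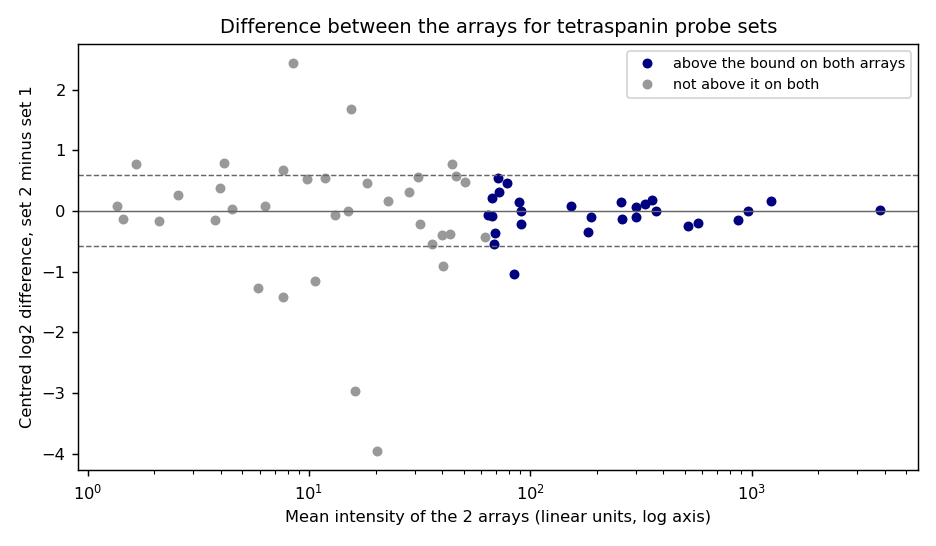
Centred log2 difference, set 2 minus set 1, against the mean intensity (log axis) of the 63 tetraspanin probe sets. Dashed lines mark 1.5-fold, and 1 of the 28 probe sets above the bound on both arrays, a Cd151 probe set, lies outside them.

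Several members lie beside one another in the genome. In the RefSeq gene table of GRCm38.p6, Tspan32 and Cd81 have no protein-coding gene between them, and both were over 5 times the bound. Tspan18 and Cd82 are also direct neighbours, where Cd82 measured 968 ± 11.7 and Tspan18 71.2 ± 19.4. Tspan11 and Tspan9 are neighbours too, and their brightest probe sets read 8.45 ± 8.27 and 90.5 ± 1.41. Cd151 and Tspan4 are separated by 1 gene, Polr2l, and both lay within 2 times the bound. Read against the bound, Tspan32 with Cd81 and Cd151 with Tspan4 fell in the same range, while the other 2 pairs did not.

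Promoter windows were available in the RefSeq table (GRCm38.p6) for 27 of the 29 genes. Each runs from 250 bases before to 50 after a gene start, and the window with most CpG dinucleotides was taken where a gene has several starts. The windows below were chosen by intensity within role groups and not by CpG number. Cd53 and Cd82 stand for the white blood cell role, Tspan14 for the TspanC8 group and Tspan13 for the members of no assigned role. Prph2, whose best probe set read lowest in the family, is given for contrast. The windows are written 5′ to 3′ on the strand of the gene, with CpG dinucleotides in capitals.
Cd53 promoter, chr3:106790100-106790399 (- strand): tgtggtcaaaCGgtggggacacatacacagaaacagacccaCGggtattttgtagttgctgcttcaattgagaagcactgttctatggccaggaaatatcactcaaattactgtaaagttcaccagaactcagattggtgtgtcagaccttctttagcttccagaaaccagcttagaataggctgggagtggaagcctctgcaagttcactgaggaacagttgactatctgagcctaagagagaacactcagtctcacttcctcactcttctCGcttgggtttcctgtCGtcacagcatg
Cd82 promoter, chr2:93462901-93463200 (- strand): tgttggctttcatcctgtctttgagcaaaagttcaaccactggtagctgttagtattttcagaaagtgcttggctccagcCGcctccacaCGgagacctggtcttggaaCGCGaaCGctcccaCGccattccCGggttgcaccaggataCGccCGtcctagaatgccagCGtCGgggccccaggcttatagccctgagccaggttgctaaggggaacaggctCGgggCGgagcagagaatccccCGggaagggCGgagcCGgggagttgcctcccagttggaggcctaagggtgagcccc
Tspan14 promoter, chr14:40966847-40967146 (- strand): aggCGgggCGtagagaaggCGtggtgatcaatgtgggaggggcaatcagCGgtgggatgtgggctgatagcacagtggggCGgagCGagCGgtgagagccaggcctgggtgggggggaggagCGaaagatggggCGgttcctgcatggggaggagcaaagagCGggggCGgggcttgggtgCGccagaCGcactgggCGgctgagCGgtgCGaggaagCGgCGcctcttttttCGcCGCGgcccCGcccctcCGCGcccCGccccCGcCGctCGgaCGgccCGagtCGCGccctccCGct
Tspan13 promoter, chr12:36042429-36042728 (- strand): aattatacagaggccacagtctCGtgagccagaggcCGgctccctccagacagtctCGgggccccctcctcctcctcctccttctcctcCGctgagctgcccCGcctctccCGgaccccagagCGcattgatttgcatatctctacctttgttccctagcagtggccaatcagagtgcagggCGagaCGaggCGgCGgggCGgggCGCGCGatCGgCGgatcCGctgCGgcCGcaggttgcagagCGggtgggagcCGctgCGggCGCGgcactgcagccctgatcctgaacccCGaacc
Prph2 promoter, chr17:46910228-46910527 (+ strand): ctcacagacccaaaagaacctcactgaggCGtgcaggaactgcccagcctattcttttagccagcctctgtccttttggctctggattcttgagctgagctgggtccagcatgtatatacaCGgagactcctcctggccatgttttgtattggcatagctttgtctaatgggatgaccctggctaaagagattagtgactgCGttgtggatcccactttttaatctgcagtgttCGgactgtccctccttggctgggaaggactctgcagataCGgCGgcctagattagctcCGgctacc

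The Cd53 window held 4 CpG dinucleotides, that of Cd82 16, that of Tspan14 33, that of Tspan13 26 and that of Prph2 7. The detected members thus included both CpG-poor and CpG-rich promoters. Among the 10 genes over 2 times the bound, 7 had at least 10 CpG, and the exceptions were Cd37 with 8, Cd53 with 4 and Tspan32 with 2. All 3 exceptions belong to the white blood cell role, while Cd81, Cd82 and Cd9 of that role had 23, 16 and 18. Over all called members the median was 18.5 CpG (18 genes), and 66.7% had at least 10, against a median of 7 and 44.4% in the 9 members not called. For all named genes with a window, the values were a median of 23 and 88.2% in the 7130 called, against 10 and 51.9% in the 7322 not called. CpG number did not separate the members completely, since Tspan17 and Tspan15 each had 29 CpG and were not above background, and Upk1a had 0 and was.

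**Figure D3:**
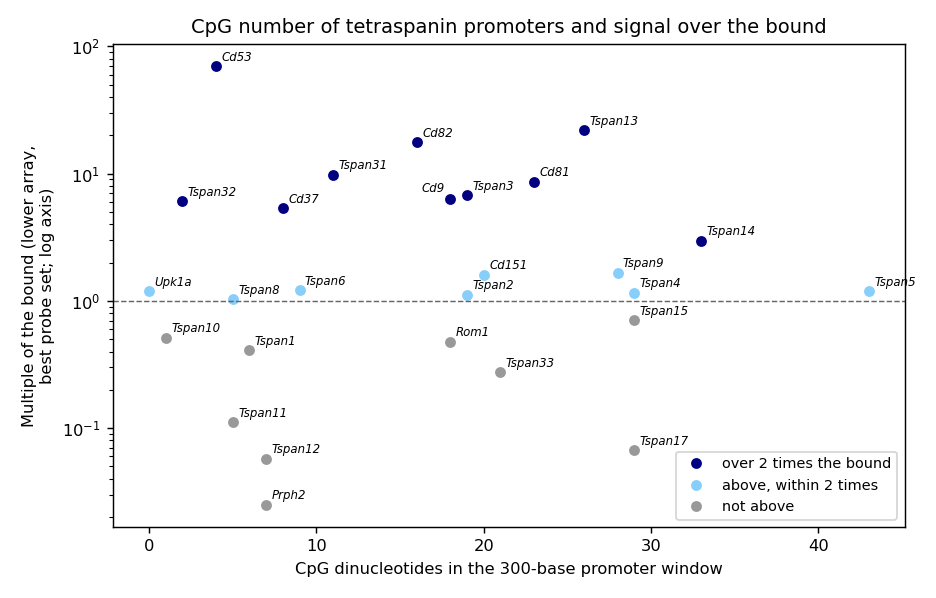
CpG number of the promoter window against the signal of the best probe set, as a multiple of the bound on the lower array (log axis), for the 27 tetraspanin genes with a window. Cd53, Tspan32 and Cd37 stand at 4, 2 and 8 CpG and over 5 times the bound, while Tspan15 and Tspan17 stand at 29 CpG and below it.

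A few short motifs were searched on both strands of the same windows. The shares set beside them are over all 27025 genes with a window, measured or not, whose median was 8 CpG. The GC box, GGGCGG, was found in 14 of 27, against 37.3% of these genes, and it contains a CpG. The CCAAT box, CCAAT, was found in 8, against 37.4%. These were Cd53, Tspan13, Tspan3 and Tspan31, which were above background, and Prph2, Tspan12, Tspan15 and Tspan33, which were not. The TATA box, TATAAA, was found in Cd81 and Tspan12, against 13.7%. The ETS motif CCGGAAG, which also contains a CpG, was found in Tspan32, Rom1 and Tspan11, against 9.38%, and the RUNX motif TGTGGTT was found in Tspan32, against 5.23%. The cyclic AMP response motif TGACGTCA was found in none of the 27, against 1.88%. Tspan32 was the member with both the ETS and the RUNX letters in its window. These are matches of letters and do not show binding.

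Partners reported to bind tetraspanins were largely detected. Of 27 measured partner genes 21 were above background, against 47.8% of all genes, and 13 were over 5 times the bound, against 17.8%. The list was chosen with earlier results of these data known, and it includes the T cell markers Cd2, Cd3e, Cd4 and Cd5. Its share is thus not particular to tetraspanin partners. Immune receptors were among the partners detected. Ptprc, which encodes CD45, the partner of Cd53, measured 5038.4 and 4745.6 (4892 ± 207). Ifitm1, a partner of Cd81, measured 1295.7 and 1306.2 (1301 ± 7.42). Cd2, Cd3e, Cd4, Cd5 and Cd44 were also over 5 times the bound, with means from 839 to 1933, and Cd8a was near it at 66.5 ± 1.20.

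The integrin partners were unequal. The leukocyte integrin genes Itgal and Itgb2 measured 2329 ± 153 and 1613 ± 66.0. Itga4 and Itgb1, subunits of a fibronectin receptor, measured 329 ± 17.9 and 329 ± 12.5, each with 2 probe sets above background, of 5 and 6. The laminin receptor subunits, which are the partners of Cd151, were at 275 ± 41.6 for Itga6, 108 ± 6.15 for Itga3 and 70.4 ± 2.97 for Itga7. Of these 3, Itga3 and Itga7 had 1 probe set each above background and Itga6 had 2.

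The immunoglobulin superfamily partners of Cd9 and Cd81, Ptgfrn and Igsf8, were near the bound at 66.0 ± 1.13 and 57.5 ± 7.35. Epcam, an epithelial partner, measured 190 ± 21.1 with 1 of 2 probe sets above background. The 6 partners not above background were Cd36, Cldn1, Clec7a, Cr2, Hbegf and Met, known chiefly from myeloid, B or epithelial cells, with means from 6.55 to 44.6.

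**Figure D4:**
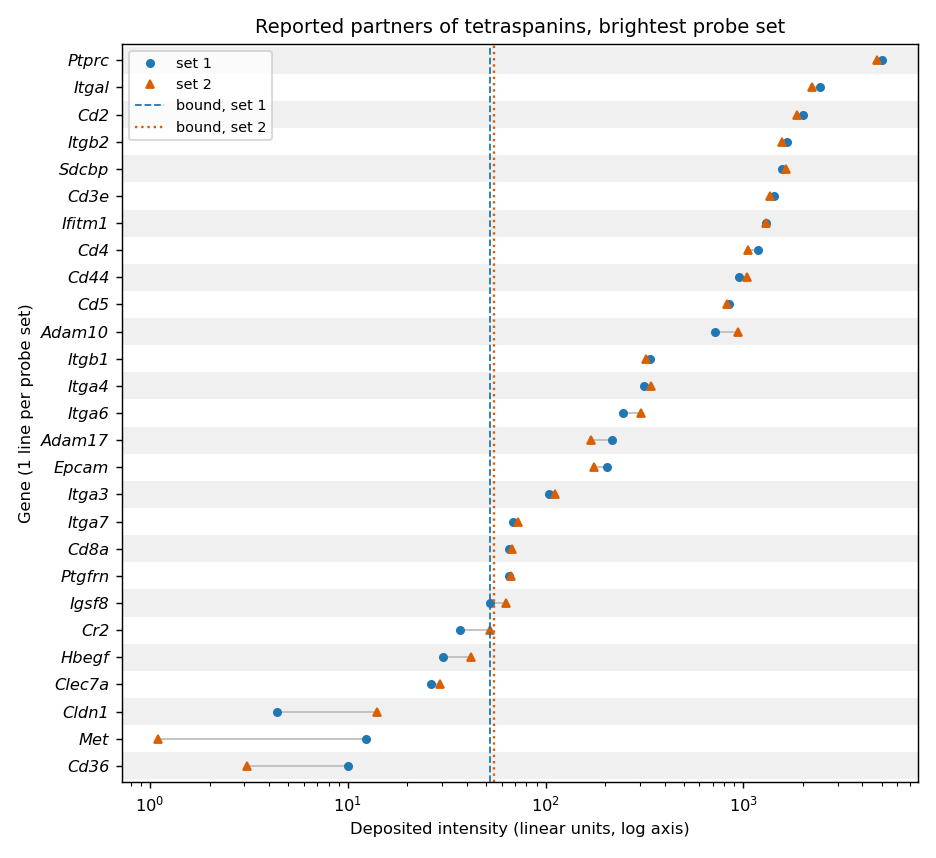
Deposited intensity (log axis) on set 1 (circles) and set 2 (triangles) of the brightest probe set of the 27 measured partner genes, with the bounds of 52.1 and 55.1. The 21 genes from Ptprc to Igsf8 were above background, and the readings of different genes are not abundances.

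Genes that act on tetraspanins or carry them in vesicles were detected too. Of 8 measured regulators 7 were above background, among them the adaptor Sdcbp (syntenin) at 1608 ± 54.3, Socs3 at 436 ± 5.30, the kinase Prkca at 309 ± 18.3 and the palmitoyl transferase Zdhhc3 at 213 ± 9.12. Mgat3, a glycosyltransferase, was not, at 32.6 ± 0.212. Of 21 genes of vesicle release 17 were above background, against 47.8% of all genes, with the ESCRT genes Vps4b at 1082 ± 11.2 and Chmp4b at 1016 ± 8.63 and the ALIX gene Pdcd6ip at 685 ± 18.0. Rab27b was not, at 57.8 ± 9.48, though it passed the bound on set 2 alone. Sdc1 and the sphingomyelinase gene Smpd3 were not above background, at 19.8 ± 9.83 and 15.3 ± 2.12. The ESCRT gene Vps25, named here after its value was seen, was not either, at 15.2 ± 5.66.

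Other families of membrane proteins gave different shares. Among the genes of 4 membrane spans, 7 of 17 MS4A genes, 1 of 20 claudins and 0 of 4 L6 genes were above background, against 19 of 29 tetraspanins. The MS4A genes over 5 times the bound were 5, led by Ms4a4b at 5472 ± 227 and Ms4a6b at 4649 ± 257. Integrin genes were above background in 14 of 25 cases, solute carriers in 144 of 351 and Tmem genes in 109 of 215. These counts describe the arrays and were not tested against each other.

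**Figure D5:**
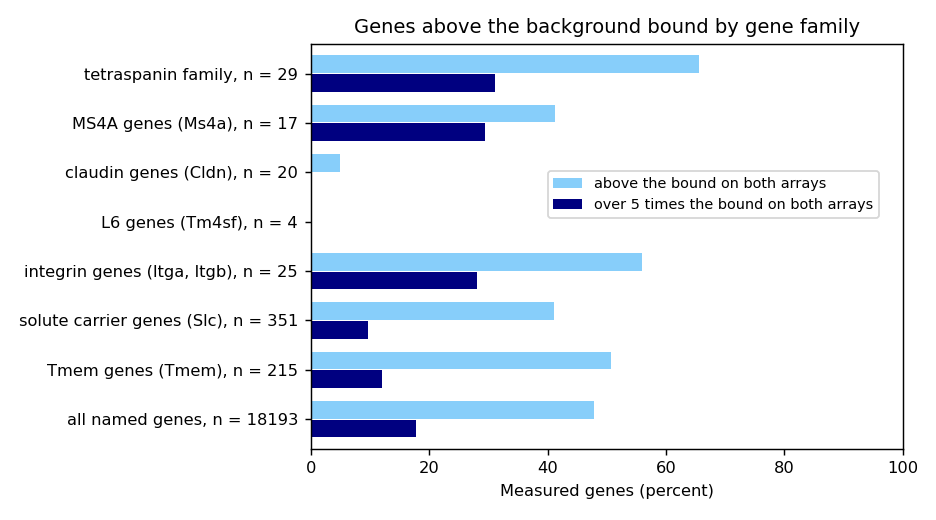
Percent of measured genes above the bound on both arrays (light bars) and over 5 times it (dark bars), by gene family, with the number of genes. Tetraspanins stand at 65.5% and 31.0%, all named genes at 47.8% and 17.8%.

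Several tetraspanins are also expressed by other blood cells, so the marker lists are given beside them. Of all named genes, 47.8% passed the bound and 17.8% were over 5 times it. All 11 measured T cell genes were over 5 times the bound. Of 11 B cell markers, 7 passed the bound and 2 were over 5 times it, Ighm at 2372 ± 295 and Ms4a1 at 377 ± 17.4. The brightest probe sets of the list summed to 3826.2 and 3434, of which Ighm gave 2580.6 and 2163. Such sums depend on the probes and on the number of genes, and do not measure cell content. The markers Cr2, Ebf1 and Fcer2a did not pass on both arrays, and Fcer2a passed on set 1 alone, at 57.5 and 26.4. The B lineage factor Pax5, named here after its value was seen, also passed on set 1 alone, at 54 and 53.7 (53.9 ± 0.212). Of the markers for macrophages and dendritic cells, 1 of 15 passed and 0 were over 5 times the bound, with sums of 441.9 and 633.2. Platelet and erythroid genes passed in 1 of 8 cases, with 0 over 5 times the bound and sums of 260.4 and 297.4. NK cell markers passed in 2 of 6, Klrd1 at 1630 ± 75.1 and Klrk1 at 460 ± 15.6, both over 5 times the bound. The sums of that list were 2068.7 and 2209.4. Epithelial, endothelial and stromal genes passed in 4 of 14, with sums of 916.2 and 838.5. Of these, 1 was over 5 times the bound, Pecam1 at 326 ± 36.8. Neural genes passed in 1 of 9, Mbp at 494 ± 31.3, also over 5 times the bound, with sums of 691.9 and 714.8. No marker of these lists had its brightest probe set at 0. The part of other cells in the readings of Cd9, Cd37 and Cd81 was not tested. In a bulk sample, fewer cells with a transcript and less of it per cell cannot be told apart.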

How the data were processed

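The authors' deposited table holds 1 linear intensity per probe set and array. The scale was read from the values, and background correction, probe summary and scaling were not given in the sources used here. Of 45101 probe sets, 64 manufacturer controls were left out. The medians were 36.4 and 37.9, and 315 probe sets had identical values. Names came from GEO's platform annotation, which gave 1 symbol to 34945 probe sets, several to 932 and none to 9160. RefSeq (GRCm38.p6) changed 0 of 63 member symbols. Of the 47 genes behind the bound, 42 were measured, by 54 probe sets. Intensities under 1 were set to 1 before log2. The members and lists were chosen with earlier results of these data known. Every tetraspanin, partner and TspanC8 gene could be named, and from other lists at most 4 genes above and 3 not above background. With 1 group of 2 arrays no test was possible, and 2 arrays give limited precision. The steps were tested on simulated data in which expressed probe sets lay far above the bound, so that test does not bear on calls near it. Python 3.11.15, numpy 2.4.6, pandas 2.3.3 and matplotlib 3.10.9 were used. Alternatives varied the bound, the probe sets, the arrays, centring, floor and fold limit. Promoters stood in for protein sequences, which were not used here.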

Additional observations from a re-analysis of the deposited data

How the results depend on the processing

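With the bound from the second list of other organs (108 and 100.2 on the 2 arrays), 10 member genes (34.5%) and 16 member probe sets (25.4%) were above background, against 35.4% of all genes and 25.8% of all probe sets, and 0 probe sets were beyond 1.5-fold. A bound of 2 times the first, chosen after seeing the data, gave the same counts of 10, 16 and 0, against 35.0% of all genes and 25.4% of all probe sets, and under both bounds the 9 genes called within 2 times the bound lost the call. Without set 1, 20 member genes (69.0%) and 31 member probe sets (49.2%) were above background, against 50.3% of all genes and 41.0% of all probe sets. Without set 2, 20 member genes (69.0%) and 30 member probe sets (47.6%) were, against 50.5% and 41.1%. Without probe sets of the suffixes _x_at, _s_at and _a_at Tspan14 lost its only probe set. Then 18 of 27 genes (66.7%) were called, against 43.8% of all genes. Cd37, Cd53, Cd81, Cd82, Cd9, Tspan13, Tspan3, Tspan31 and Tspan32 were called under all 8 alternatives that bear on the call. For 30 alternative values of the 4 family results, the limit was 1.5-fold of the count. For the median difference it was the typical SD between arrays (0.11 on the log2 scale). Within these limits were 24, and the other 6 are those given here for both bounds. The 24 include values with a floor of 16, which could not change because called probe sets lie above it. Leaving out 1 array could only add calls. Of 96 list counts, 75 stayed within 1.5-fold. No paired analysis was possible because there is 1 group. Readings near the bound limit what can be said of weakly detected members, and no second condition was measured.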
